A study of Mus musculus with 16 samples.

Results

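Cytochrome P450 genes of families 1 to 4 were described across the jejunal and ileal epithelium of suckling and weaned mice. The members were taken by symbol, as every gene row whose name was Cyp, a digit from 1 to 4, a letter and a member number, which gave 85 of the 24421 gene rows in 21 subfamilies. The name decided membership and no measured value did. The pattern also took the pseudogene rows Cyp4f41-ps, Cyp2d37-ps, Cyp2c53-ps and Cyp4b1-ps2, and Cyp4x1os, on the strand opposite Cyp4x1. These rows stayed in the member counts and subfamily sums, and of them Cyp4f41-ps was tested. Messenger RNA was sequenced from 16 libraries of wild-type (WT) C57BL6/J mice, 4 each of P6 jejunum, P6 ileum, P36 jejunum and P36 ileum, where P6 and P36 are postnatal days 6 and 36. Each of the 8 mice, 2 female and 2 male at each age, gave 1 jejunal and 1 ileal library, so the same replicate number at the same age names 1 mouse (replicates 1 and 2 female, 3 and 4 male). Epithelium was released from a short segment of each region in EDTA, and the released cells were sequenced in bulk without sorting by type. The labels name no treatment, transgene or deletion.

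Cytochromes P450 are haem enzymes that insert 1 oxygen atom into lipophilic substrates, with electrons from NADPH passed on by P450 oxidoreductase (Por) and, for some reactions, cytochrome b5. Families 1 to 3 are known for the oxidation of drugs, plant compounds, steroids and polyunsaturated fatty acids, and family 4 for hydroxylating fatty acids and eicosanoids near their tail. In the small intestine they sit mainly in the endoplasmic reticulum of villus enterocytes and take part in first-pass metabolism of what is eaten. Several are known targets of ligand-activated receptors, among them Cyp1a1 of the aryl hydrocarbon receptor (AhR), Cyp2b10 of the constitutive androstane receptor CAR (gene Nr1i3), Cyp3a11 of the pregnane X receptor (gene Nr1i2) and Cyp4a10 of PPAR-alpha.

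Library totals ran from 12159237 to 25947276 assigned reads, and 39 to 48 members had at least 1 read in a library. Region and age labels were checked against markers. Gata4, the jejunal transcription factor, was at 155 to 164 CPM (read counts per 1000000 of the TMM-scaled library total) in the P6 jejunum and 174 to 193 CPM for P36 jejunum, against 3.25 to 34.7 and 0.735 to 31.6 CPM in the ileum of the same ages. The ileal marker Fabp6 was at 0 to 0.893 and 1.71 to 8.21 CPM in the jejunum against 6.13 to 74.3 and 3727 to 9114 CPM in the ileum, while Onecut2, listed as an ileal marker, ran the other way (at least 24.7 CPM in every jejunal and at most 3.04 CPM in every ileal library). Sis, the sucrase gene of the weaned gut, was at 5.98 to 26.6 CPM over all P6 libraries and 772 to 5722 CPM over all P36 libraries. Standing apart from their groups were 3 libraries. P36 ileum replicate 1 held more jejunal and enterocyte marker RNA than the other 3, P6 ileum replicate 2 held 188 CPM of smooth muscle markers against 1.19 to 2.99 CPM elsewhere in its group, and P6 ileum replicate 4 held the lowest epithelial marker sum of its group (3835 CPM). P6 ileum replicate 4 also held the most Gata4 (34.7 against 3.25 to 18.4 CPM) and Lct (1245 against 367 to 667 CPM) of its group. Its Apoa4, also higher in the P6 jejunum, was the lowest of its group (3543 CPM). Hepatocyte markers summed to 0.580 to 2.43 CPM in any library, with Serpina3k and Mup3 at 0 throughout and Alb at no more than 0.235 CPM, so the P450 genes better known from liver were read here in libraries near 0 for these liver transcripts. At P6, replicates 1 and 3 shared 1 animal-identifier prefix and replicates 2 and 4 another, whose meaning the labels do not give. The prefixes did not overlap, in the same direction in both regions, for 9 of 26 members described below (17.6% of all genes tested).

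Many members were silent or nearly so in this epithelium. Of the 85 rows, 14 had 0 counts in all 16 libraries, among them Cyp2c37, Cyp2c39, Cyp2c50, Cyp2c54, Cyp2a4, Cyp2b9 and Cyp4a14, and another 24 had 1 to 19 counts in total. Cyp2e1, the ethanol-inducible enzyme of liver, had 1 count in each region over all P36 libraries. The remaining 47 had 20 or more. A filter on low counts left 37 members tested and 48 untested, and no untested member exceeded a group mean of 0.568 CPM. A group mean of 1 CPM was reached by 32 members and 100 CPM by 15. A member that is high in a single group passes such a filter because of that group, so the counts of members below describe the 37 and not all 85.

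Reads that align to several places were not counted, which can lower close paralogues. Among the 36 tested members with a transcript match, the share of 100-base windows also found in another annotated gene had a median of 0% and a maximum of 35.8%, reached by Cyp4a12a with Cyp4a12b. Of the 14 members at 0 counts, 1 shared over 50% of its windows, Cyp3a41b (88.2%). Sums over subfamilies are given beside the single genes, but a read left out in this way is missing from the sum as well.

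**Figure D1:**
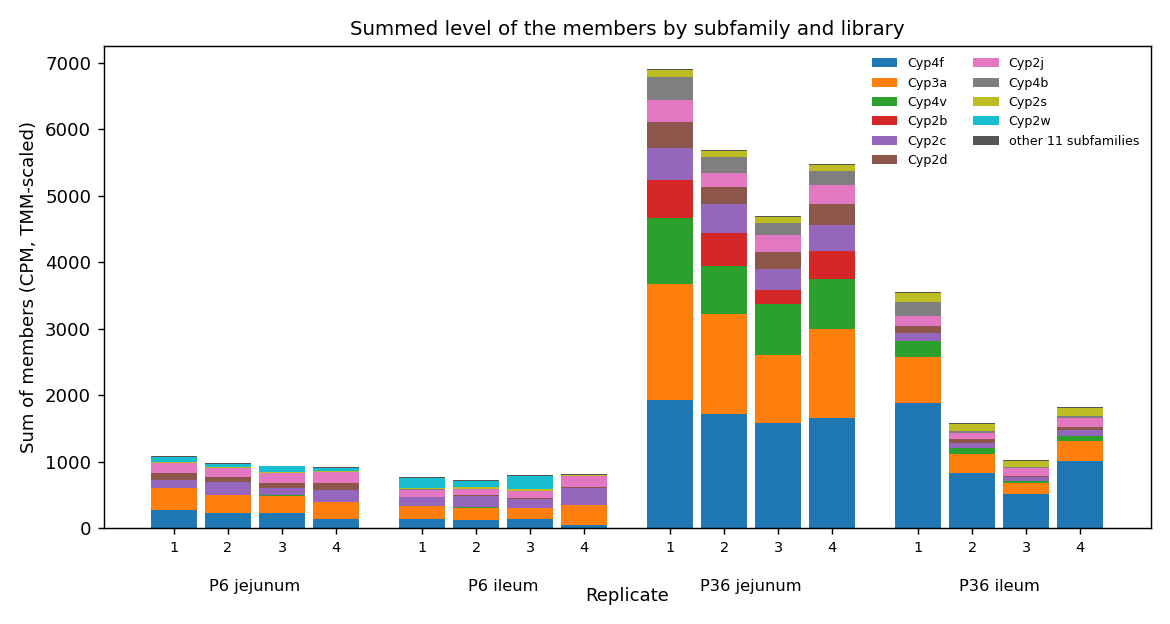
Stacked bars of the summed level of each P450 subfamily (CPM, linear axis from 0) in each of the 16 libraries, with the 10 largest subfamilies in colour and the other 11 pooled. The 4 P36 jejunal bars are the tallest, P36 ileum replicate 1 is the tallest ileal bar, and the 8 P6 bars are low and alike in height.

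Members together held 0.0881% ± 0.00567 (SD, n = 4) of all reads for P6 jejunum and 0.0851% ± 0.00498 for P6 ileum. At P36 the shares were 0.545% ± 0.0683 for jejunum and 0.203% ± 0.0908 for ileum. The P36 ileal libraries ranged from 0.115% to 0.330% and the P36 jejunal ones from 0.471% to 0.636%, with no overlap. Without Cyp4f14, the most abundant member, the P36 jejunal share was 0.404%. In bulk RNA, a lower level from fewer cells of a type and from less RNA per cell cannot be told apart, and this holds for every result below.

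Cyp3a headed the P450 pool in both P6 groups and Cyp4f in both P36 groups. In the P6 jejunum the Cyp3a subfamily held 27.9% of the member reads, Cyp4f 22.1%, Cyp2c 15.6% and Cyp2j 15.6%. In the P6 ileum Cyp3a held 27.8%, Cyp2c 22.4%, Cyp2j 15.4%, Cyp2w1 alone 14.2% and Cyp4f 14.0%. In the P36 jejunum Cyp4f led with 30.5%, followed by Cyp3a with 24.5% and Cyp4v3 with 14.4%. In the P36 ileum Cyp4f held 52.7% and Cyp3a 17.9%.

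Levels per length (CPM per kb of exon) put the members on 1 scale. Cyp3a13 headed the P6 jejunum at 69.9 CPM per kb, ahead of Cyp2c68 (65.4), Cyp4f16 (52.4) and Cyp2d26 (50.2). Cyp2c68 headed the P6 ileum at 90.8 CPM per kb, ahead of Cyp2w1 (72.3) and Cyp3a13 (71.8). Cyp4f14 headed both P36 groups, at 610.2 CPM per kb in the jejunum and 334 in the ileum, followed in the jejunum by Cyp3a13 (312), Cyp4v3 (277) and Cyp2b10 (224) and in the ileum by Cyp3a13 (111) and Cyp4f40 (92.5).

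The promoters of 4 members that recur below are printed to show the sequence upstream of each: Cyp4f14, the most abundant; Cyp2b10, with the largest fitted difference; Cyp3a11, which was higher in the P36 jejunum than in the P36 ileum; and Cyp2w1, which fell furthest. Each runs 5′ to 3′ on the gene's own strand over the 250 bases before the RefSeq start in GRCm38.p6 (mm10). Capitals mark matches on either strand to TATAAA, to GCGTG (the core that AhR binds), to AGGTCA (a core that nuclear receptors bind), to GATAA (GATA factors) or to TTTAT (CDX factors). Cyp4f14 lies at chr17:32917343-32917592 on the minus strand, Cyp2b10 at chr7:25897408-25897657 on the plus strand, Cyp3a11 at chr5:145879855-145880104 on the minus strand and Cyp2w1 at chr5:139352366-139352615 on the plus strand.
Cyp4f14: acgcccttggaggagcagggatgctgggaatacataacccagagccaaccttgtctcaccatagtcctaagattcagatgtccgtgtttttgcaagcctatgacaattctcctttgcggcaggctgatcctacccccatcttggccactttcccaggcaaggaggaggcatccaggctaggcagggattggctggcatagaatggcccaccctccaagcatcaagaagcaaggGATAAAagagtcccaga
Cyp2b10: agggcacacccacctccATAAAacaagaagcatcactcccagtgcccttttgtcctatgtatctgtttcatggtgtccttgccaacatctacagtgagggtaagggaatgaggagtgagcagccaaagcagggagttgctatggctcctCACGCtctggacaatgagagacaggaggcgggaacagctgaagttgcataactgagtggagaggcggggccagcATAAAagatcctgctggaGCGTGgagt
Cyp3a11: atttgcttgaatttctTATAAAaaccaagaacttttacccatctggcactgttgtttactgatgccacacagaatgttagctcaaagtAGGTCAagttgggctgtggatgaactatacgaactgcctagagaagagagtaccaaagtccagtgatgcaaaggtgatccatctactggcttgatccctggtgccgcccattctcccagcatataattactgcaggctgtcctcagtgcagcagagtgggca
Cyp2w1: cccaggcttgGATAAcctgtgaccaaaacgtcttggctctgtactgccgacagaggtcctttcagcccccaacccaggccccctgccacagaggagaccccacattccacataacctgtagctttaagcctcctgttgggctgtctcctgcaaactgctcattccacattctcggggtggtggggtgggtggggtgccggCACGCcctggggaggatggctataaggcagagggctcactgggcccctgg

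Counting backwards from -1, the base before the start, and giving the first base of a match as printed, the Cyp4f14 promoter held GATAA at -17, overlapped by a reverse TTTAT at -16. Cyp2b10 held GCGTG at -9 and its reverse complement at -101, and reverse TTTAT at -233 and -27. Cyp3a11 held TATAAA at -234, overlapped by a reverse TTTAT at -233, and AGGTCA at -162. Cyp2w1 held GATAA at -240 and a reverse GCGTG at -50. Over windows from 250 bases before to 50 after the start, TATAAA was found in 9 of the 28 tested members with a matched promoter (32.1%) against 13.6% of all 32851 promoters. The shares were 60.7% (17 members) against 40% for TTTAT, 42.9% (12) against 25.4% for GATAA, 25% (7) against 16.3% for AGGTCA and 28.6% (8) against 32.4% for GCGTG. Every TATAAA match contains a reverse TTTAT match, so the TTTAT share counts the promoters with TATAAA again and is not a separate result. TTTAT apart from TATAAA was not tested. The tested members with TATAAA were Cyp2c29, Cyp2c55, Cyp2c65, Cyp2c66, Cyp2c67, Cyp2c70, Cyp3a11, Cyp3a44 and Cyp2d26, most of them Cyp2c paralogues on chromosome 19. Promoters of paralogues are not independent units, and no difference between these shares was tested. A match describes the letters and does not show binding.

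Age separated the members in both regions. A gene was called when edgeR's quasi-likelihood test gave an adjusted p below 0.05 over all 13429 genes tested and an absolute log2 fold change above 2. In the jejunum 23 of the 37 tested members were called from P6 to P36, 16 higher and 7 lower at P36, where 16.4% of all genes were called, 7.86% higher and 8.59% lower. In the ileum 23 were also called, 15 higher and 8 lower at P36, where 16.4% of all genes were called (6.4% higher and 10% lower). The median log2 fold change of the 37 was 1.35 in the jejunum and 1.17 in the ileum, beside -0.01 and -0.03 over all genes. Cell markers differed between the ages too, with the 6 goblet markers summing to 1698 to 4103 CPM over the P6 and 7568 to 17956 CPM over the P36 libraries, the 5 Paneth markers to 35.1 to 834 and 4539 to 15635 CPM, and no marker of either list at 0 in a group. Their part in the age differences was not tested. By the adjusted p alone, 29 differed in the jejunum (51.6% of all genes) and 26 in the ileum (55.7%). The 2 ages did not overlap for 32 members in the jejunum (63.8% of all genes) and for 21 in the ileum (44.4%).

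In both regions 13 members rose with age, namely Cyp4f14, Cyp4f15, Cyp4f40, Cyp4b1, Cyp4v3, Cyp3a11, Cyp3a44, Cyp2b10, Cyp2c55, Cyp2c65, Cyp2c66, Cyp2d22 and Cyp2s1. In both regions 5 fell, namely Cyp2w1, Cyp2c67, Cyp2c70, Cyp2j13 and Cyp4f17. In the jejunum but not the ileum Cyp3a13, Cyp2c29 and Cyp1a1 were called higher and Cyp4a10 and Cyp2f2 lower at P36. In the ileum but not the jejunum Cyp2d26 and Cyp3a25 were called higher and Cyp2c68, Cyp2c44 and Cyp4a12a lower. None was called in opposite directions. Of these last 10, the age change itself differed between the regions by the interaction test for Cyp2c68, Cyp2c44, Cyp2f2 and Cyp1a1. Calls shared by both regions were not counted over all genes, so the shared counts are not shown to be particular to the members.

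**Figure D2:**
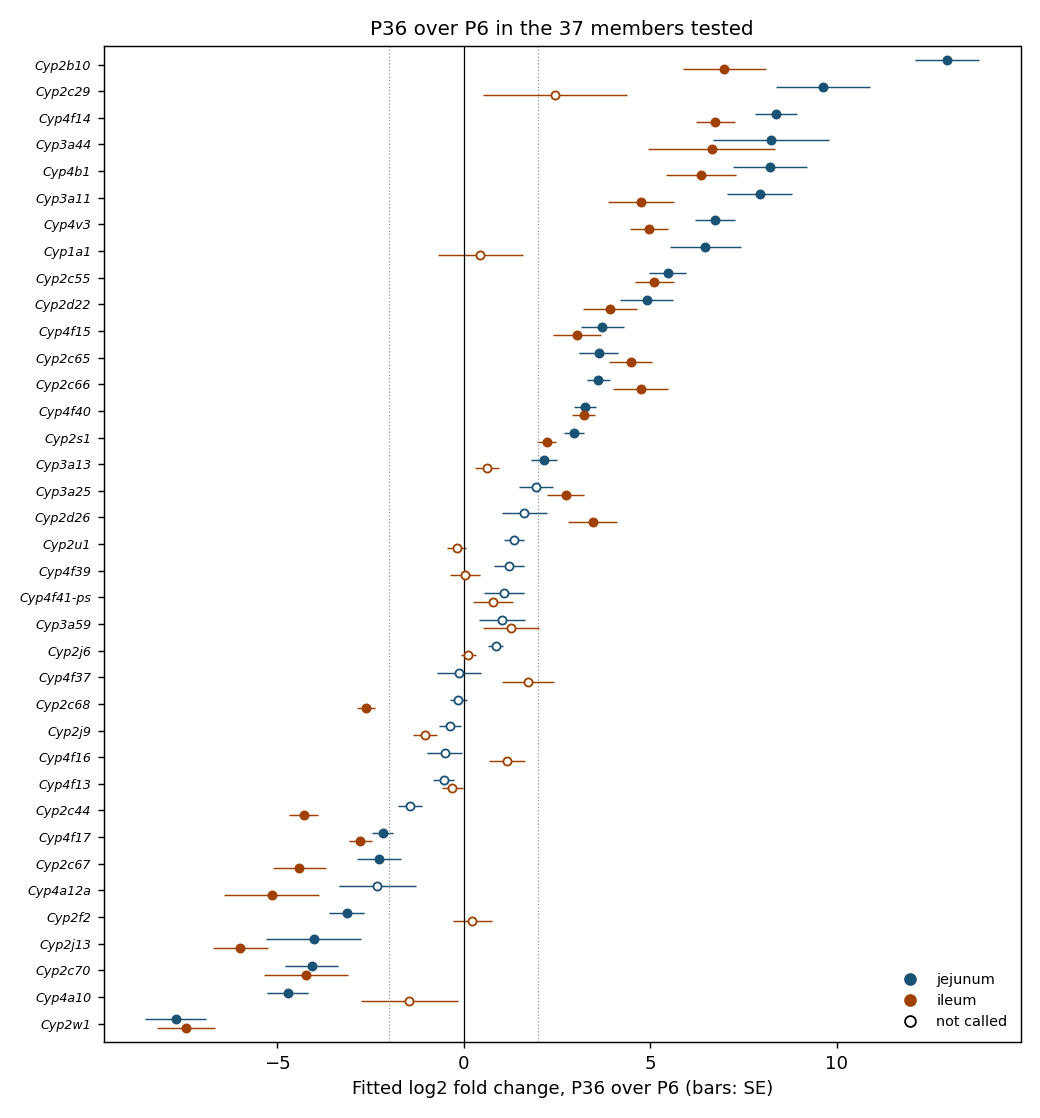
Fitted log2 fold change of P36 over P6 (bars, SE) for the 37 tested members in the jejunum and ileum, with filled points called, open points not called and dotted lines at a log2 fold change of 2 in either direction. Cyp2b10 in the jejunum lies furthest right at 12.95, and Cyp2w1 furthest left in both regions at -7.72 and -7.46.

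Between the regions, nearly all called members were higher in the jejunum. At P6, 10 of 37 were called, 9 higher in the jejunum and 1 (Cyp2j13) higher in the ileum, where 6.5% of all genes were called, 2.2% towards the jejunum and 4.3% towards the ileum. At P36, 13 were called and all 13 were higher in the jejunum, where 3.6% of all genes were called, 2.06% towards the jejunum and 1.55% towards the ileum. The median log2 fold change of jejunum over ileum was 0.37 at P6 and 1.49 at P36 for the members, beside -0.05 and -0.04 over all genes. The summed level of 6 enterocyte markers was also higher in the jejunum at P6, at 91021 to 106869 CPM against 17053 to 22175 CPM. Apoa4 alone held 63639 to 81230 CPM in the P6 jejunum and 3543 to 10821 CPM in the P6 ileum. Alpi, another of the 6, was at 3053 to 4106 CPM against 1469 to 2704 CPM. At P36 the jejunal sums were 25492 to 36496 CPM against 3833 to 28348 CPM, with overlap at P36 ileum replicate 1. Anpep ran from 9061 to 12055 CPM in the P36 jejunum and from 2371 to 13997 CPM in the P36 ileum. None of the 6 was at 0, and their part in the regional differences was not tested. By the adjusted p alone, 12 differed at P6 (25.9% of all genes) and 17 at P36 (16.1%). The regions did not overlap for 13 members at P6 (30.1% of all genes) and 23 at P36 (26.9%). The regional and the age comparisons share their libraries, so their counts are not independent of each other.

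Called at both ages were Cyp2d26, Cyp3a25, Cyp2c65, Cyp2c66 and Cyp4a10. At P6 and not P36 the calls were Cyp4f16, Cyp4f37, Cyp2c70 and Cyp2f2 towards the jejunum and Cyp2j13 towards the ileum. At P36 and not P6 they were Cyp2b10, Cyp3a11, Cyp4v3, Cyp2c29, Cyp2c44, Cyp2c68, Cyp2d22 and Cyp1a1. Calls shared by both ages were likewise not counted over all genes. The interaction test, which asks whether the regional log2 fold change at P6 differs from that at P36, passed for 5 of 37 members (8.69% of all genes), namely Cyp2f2 with the larger jejunal excess at P6 (3.68% of all genes) and Cyp2c68, Cyp2c44, Cyp2u1 and Cyp1a1 with the larger at P36 (5.01%). With the mouse as a block 9 passed, adding Cyp4f16 (1.58), Cyp3a13 (-1.66), Cyp3a11 (-3.82) and Cyp4v3 (-2.17). Without P36 ileum replicate 1, 10 passed, adding Cyp4f14 (-2.17), Cyp4b1 (-3.49), Cyp3a13 (-2.06), Cyp3a11 (-4.12) and Cyp4v3 (-2.54). These alternative counts carry no share over all genes, so the rise is not shown to be particular to the members.

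**Figure D3:**
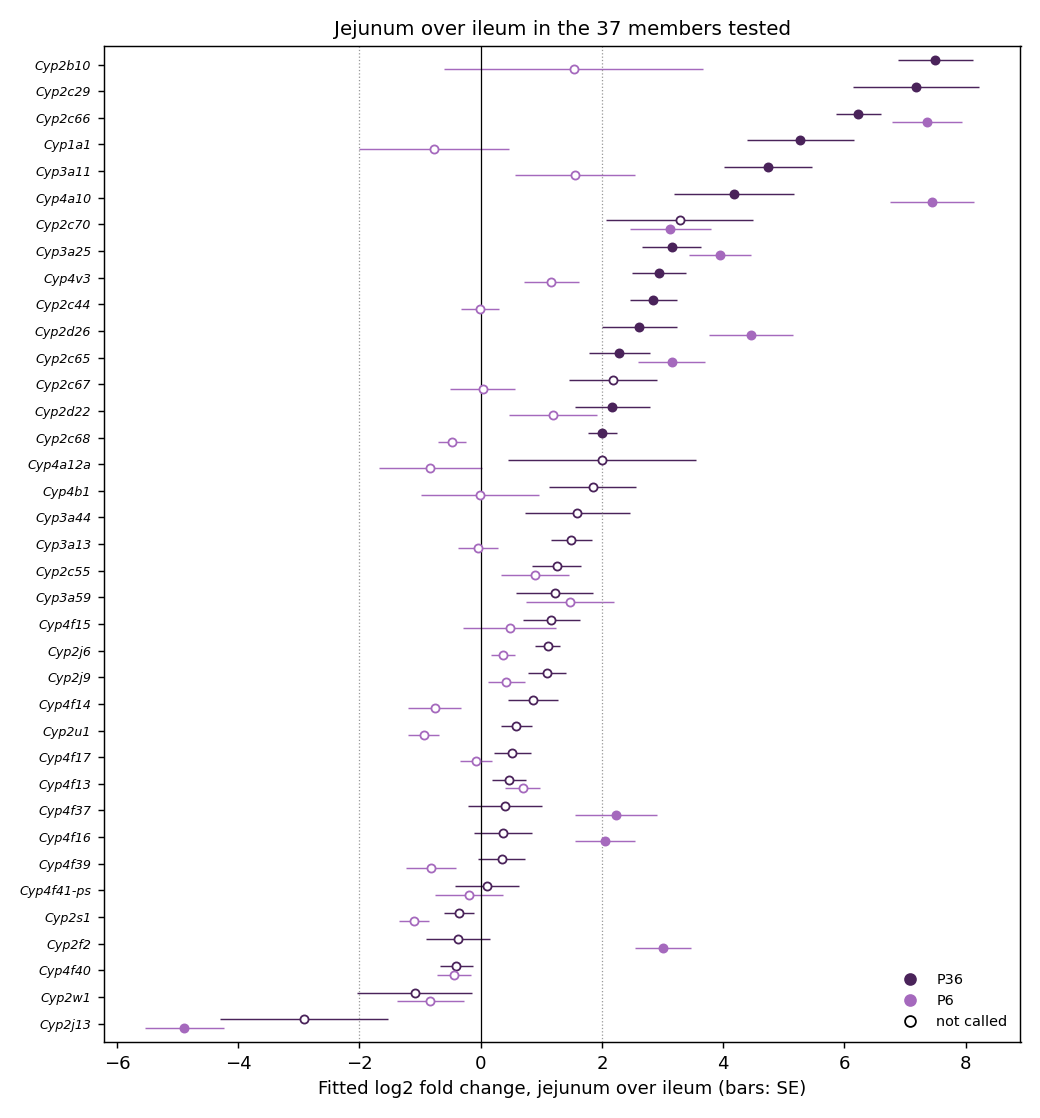
Fitted log2 fold change of jejunum over ileum (bars, SE) at P6 and P36 for the tested members, with filled points called, open points not called and dotted lines at a log2 fold change of 2 in either direction; points with 0 counts in both groups are left out. At P36 every filled point lies to the right, from 2.01 for Cyp2c68 to 7.50 for Cyp2b10, and at P6 Cyp2j13 is the 1 filled point to the left at -4.89.

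**Figure D4:**
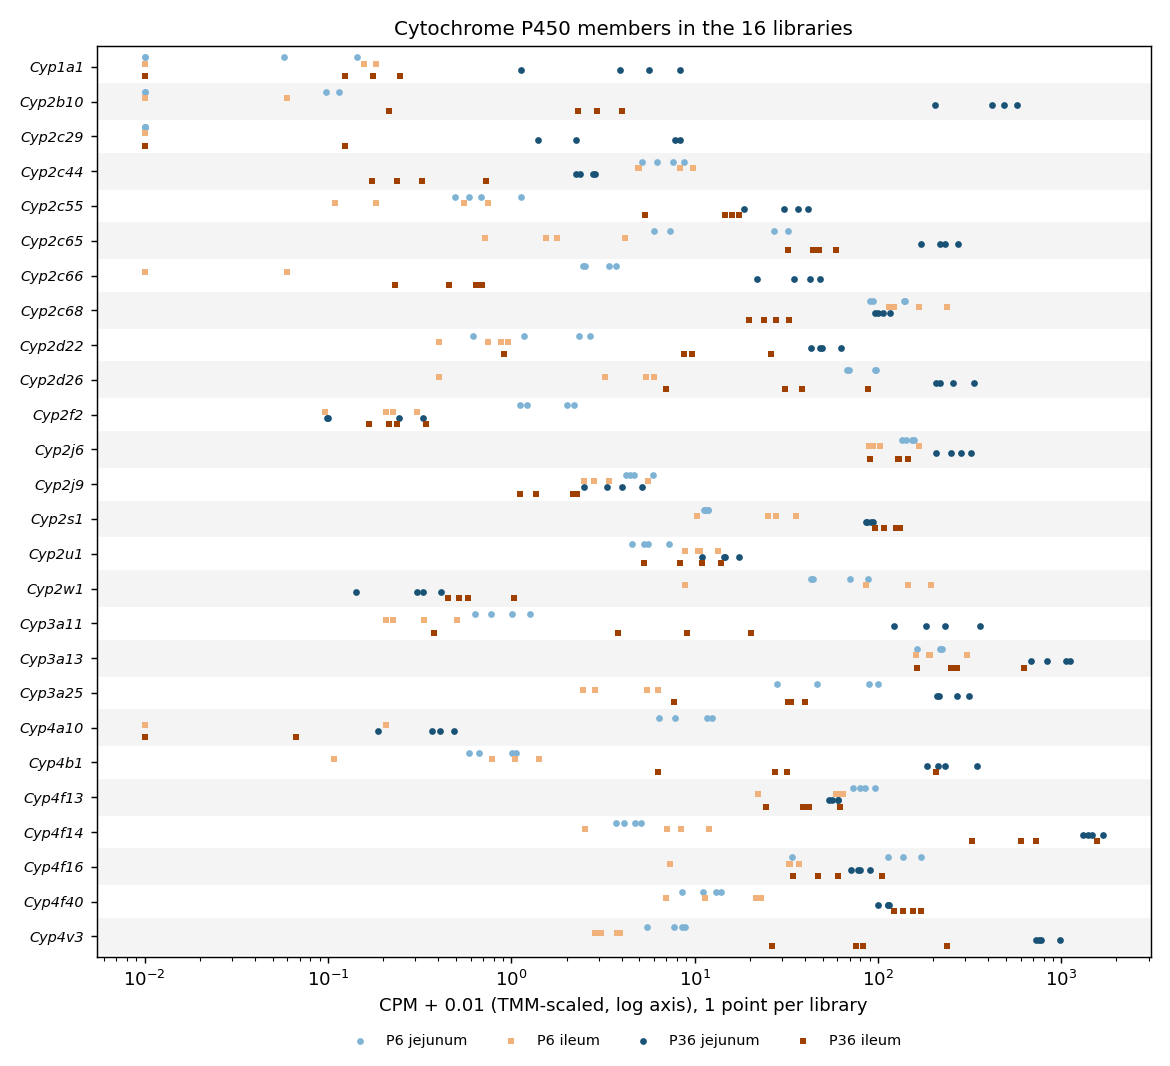
Level of 26 members in each of the 16 libraries (CPM plus 0.01, log axis), 1 point per library and 1 colour per group. Cyp4f14 runs from 3.73 to 5.09 CPM for P6 jejunum to 1313 to 1681 CPM for P36 jejunum, and Cyp2w1 runs the other way.

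Among the Cyp4f genes, which hydroxylate leukotrienes and long-chain fatty acids, Cyp4f14 (chr17:32905070-32917342, minus strand), the mouse leukotriene B4 hydroxylase, changed most. Its levels in replicates 1 to 4, the order used throughout, were 4.10, 5.09, 4.73 and 3.73 CPM for P6 jejunum and 8.39, 7.02, 12.0 and 2.50 CPM for P6 ileum. At P36 they were 1681, 1477, 1313 and 1402 CPM in the jejunum and 1563, 600.1, 327 and 728 CPM in the ileum. Every P36 library lay above every P6 library, and within the P36 ileum replicate 1 reached the jejunal range while the others did not. The log2 fold change of P36 over P6 was 8.38 ± 0.57 (adjusted p = 6.01e-09) in the jejunum and 6.75 ± 0.53 (adjusted p = 3.32e-08) in the ileum. The regions were not called at P36 (0.87 ± 0.41, adjusted p = 0.175).

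Cyp4f40 stood at 13.0, 8.48, 14.0 and 11.1 CPM for P6 jejunum and 21.7, 11.4, 22.9 and 6.96 CPM for P6 ileum. At P36 it stood at 101, 113, 114 and 114 CPM in the jejunum and 155, 136, 122 and 171 CPM in the ileum. At P36 the ileal libraries all lay above the jejunal ones (-0.40 ± 0.28, adjusted p = 0.373, not called), and the ages did not overlap in either region. Its log2 fold change with age was 3.25 ± 0.30 (adjusted p = 2.19e-07) in the jejunum and 3.21 ± 0.30 (adjusted p = 2.49e-07) in the ileum, with interaction -0.03 ± 0.39 (adjusted p = 0.972). Cyp4f15 rose too, from a mean of 0.0689 to 0.995 CPM in the jejunum and from 0.0477 to 0.445 CPM in the ileum.

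Cyp4f16 and Cyp4f13 were the abundant Cyp4f genes at P6. Cyp4f16 stood at 171, 113, 136 and 34.0 CPM for P6 jejunum, 37.2, 33.0, 32.6 and 7.31 for P6 ileum, 79.7, 71.3, 90.9 and 77.4 for P36 jejunum and 106, 47.2, 34.2 and 60.9 for P36 ileum. The P6 regions overlapped at jejunal replicate 4, and ileal replicate 4 lay far below its group. Jejunal replicates 1 and 3 had a mean of 154 CPM and replicates 2 and 4, of the other identifier prefix, 73.6 CPM. The regional log2 fold change at P6 was 2.05 ± 0.49 (adjusted p = 0.00604) and fell below the fold minimum without P6 jejunum replicate 1 (1.79), P6 jejunum replicate 3 (1.95) or P6 ileum replicate 4 (1.73), and with library totals (1.76). Cyp4f13 stood at 79.7, 96.8, 72.9 and 85.3 CPM for P6 jejunum, 59.0, 61.4, 64.2 and 22.2 for P6 ileum, 60.4, 54.3, 55.9 and 60.4 for P36 jejunum and 61.9, 38.8, 24.5 and 42.1 for P36 ileum. It was called in none of the 4 comparisons, with age differences of -0.53 ± 0.28 in the jejunum and -0.31 ± 0.29 in the ileum on the log2 scale. Cyp4f17 fell in both regions (-2.18 ± 0.29, adjusted p = 9.81e-06 in the jejunum and -2.77 ± 0.30, adjusted p = 1.15e-06 in the ileum), from means of 3.62 and 3.82 CPM. Cyp4f37 was called between the regions at P6 (2.24 ± 0.68, adjusted p = 0.0229, means 0.902 and 0.190 CPM) and lost the call with the mouse as a block (adjusted p = 0.0504), without P6 jejunum replicate 4 (1.61, adjusted p = 0.107) or P6 ileum replicate 2 or 4 (1.99 and 1.93), and with library totals (1.96).

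Cyp4v3, counterpart of the human fatty acid hydroxylase whose loss causes Bietti crystalline dystrophy, was at 7.72, 8.48, 5.46 and 8.81 CPM for P6 jejunum and 3.06, 2.84, 3.90 and 3.78 CPM for P6 ileum. At P36 it was at 989, 726, 779.8 and 754 CPM in the jejunum and 238, 83.0, 26.4 and 76.0 CPM in the ileum. The jejunal libraries lay above every ileal one at both ages, and the ileal libraries of P36 spread from replicate 3, the lowest, to replicate 1. The log2 fold change was 6.73 ± 0.54 (adjusted p = 4.20e-08) with age in the jejunum, 4.96 ± 0.51 (adjusted p = 6.41e-07) with age in the ileum and 2.94 ± 0.45 (adjusted p = 3.21e-04) between the regions at P36. The ileal age change without P36 ileum replicate 1 was 4.19 and the regional one 3.72.

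Cyp4b1, which activates furans and other protoxins and hydroxylates medium-chain fatty acids, was at 0.654, 0.580, 0.998 and 1.05 CPM for P6 jejunum and 1.04, 0.775, 1.41 and 0.0981 CPM for P6 ileum. The P36 levels were 349, 232, 185 and 213 CPM in the jejunum and 207, 31.9, 6.29 and 27.5 CPM in the ileum. All P36 libraries lay above all P6 libraries, and P36 ileum replicate 1 alone entered the jejunal range. The age change was 8.22 ± 0.99 (adjusted p = 4.00e-06) in the jejunum and 6.36 ± 0.93 (adjusted p = 2.91e-05) in the ileum on the log2 scale. The regions at P36 were not called (1.85 ± 0.72, adjusted p = 0.0956). Without P36 ileum replicate 1 they were (3.49, adjusted p = 3.68e-04), as with the mouse as a block (2.85, adjusted p = 0.0131), and the ileal age change was then 4.72.

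Cyp4a genes, the lauric and arachidonic acid hydroxylases regulated by PPAR-alpha, were low throughout. Cyp4a10 had 267, 175, 121 and 261 counts for P6 jejunum, 4, 0, 0 and 0 for P6 ileum, 3, 9, 8 and 9 for P36 jejunum and 0, 1, 0 and 0 for P36 ileum. Only the P6 jejunum held more than 9 counts in a library, and no group overlapped it. The fitted difference was 7.45 ± 0.69 (adjusted p = 1.46e-06) between the regions at P6 and -4.73 ± 0.55 (adjusted p = 2.87e-06) with age in the jejunum. At P36 the ratio of jejunum to ileum rested on 1 ileal count and was 26.2 (95% interval 4.34 to 1069), where this and the other 95% intervals of ratios cover counting error only. Cyp4a12a fell in the ileum (-5.14 ± 1.27, adjusted p = 0.00284), from 100 to 2 counts over the group. The ratio was 44.3 (95% interval 11.9 to 370.5). Its P6 ileal counts were 4, 29, 4 and 63 in replicates 1 to 4, so replicates 2 and 4 held most of them. Cyp4a14, a textbook PPAR-alpha target, had 0 counts in every library.

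The Cyp3a genes oxidise steroids, bile acids and a wide range of drugs, and Cyp3a13 (chr5:137892933-137921619) was the abundant one at both ages. It was at 223, 221, 164 and 219 CPM for P6 jejunum and 193, 189, 161 and 306 CPM for P6 ileum. P36 libraries held 1119.6, 1055, 683 and 833 CPM in the jejunum and 629, 249, 163 and 269 CPM in the ileum. The jejunal ages did not overlap, the ileal ages did, and P36 ileum replicate 1 stood above the other 3. The age change was 2.16 ± 0.34 (adjusted p = 6.97e-05) in the jejunum and 0.63 ± 0.33 (adjusted p = 0.119) in the ileum, and the regions at P36 differed by 1.49 ± 0.34 (adjusted p = 0.00606), below the fold minimum. That difference was 2.02 and called without P36 ileum replicate 1 (adjusted p = 7.03e-05).

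Cyp3a25 was at 99.9, 46.3, 88.8 and 28.0 CPM for P6 jejunum, 6.32, 2.46, 5.48 and 2.84 for P6 ileum, 271, 215, 209 and 314 for P36 jejunum and 39.9, 32.5, 7.72 and 33.5 for P36 ileum. Jejunum lay above ileum in every mouse at both ages. The regional log2 fold change was 3.95 ± 0.51 (adjusted p = 4.14e-05) at P6 and 3.16 ± 0.49 (adjusted p = 3.31e-04) at P36. It rose in the ileum (2.73 ± 0.49, adjusted p = 2.21e-04), and the jejunal difference lay just under the fold minimum (1.94 ± 0.46, adjusted p = 0.00232) and passed it without P6 jejunum replicate 1 (2.21), P6 jejunum replicate 3 (2.12), P36 jejunum replicate 2 (2.01) or P36 jejunum replicate 3 (2.10), and with library totals (2.03). At P6 the pairs of the 2 identifier prefixes had means of 94.4 and 37.1 CPM in the jejunum and 5.90 and 2.65 CPM in the ileum.

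Cyp3a11, the main drug-metabolising Cyp3a of mouse liver, had 23, 14, 24 and 16 counts for P6 jejunum and 10, 5, 6 and 4 for P6 ileum. The P36 values were 359.7, 231, 123 and 183 CPM in the jejunum and 20.3, 9.13, 0.368 and 3.80 CPM in the ileum. Every P36 jejunal library was above 100 CPM, and P36 ileum replicate 3 lay within the range of the P6 ileum. The log2 fold change was 7.94 ± 0.86 (adjusted p = 1.30e-06) with age in the jejunum, 4.76 ± 0.88 (adjusted p = 2.68e-04) in the ileum and 4.74 ± 0.72 (adjusted p = 3.12e-04) between the regions at P36, the last 2 moving to 3.82 and 5.68 without P36 ileum replicate 1. Cyp3a44, an enzyme better known from female liver, had 0 counts in all P6 libraries, 28, 13, 40 and 66 for P36 jejunum and 20, 15, 0 and 7 for P36 ileum. It was at least 51.8-fold higher at P36 in the jejunum and at least 15.8-fold higher in the ileum, against a floor of 3 counts over the P6 group, and P36 ileum replicate 3 was at 0 like the P6 libraries. Cyp3a16 and Cyp3a41a, known from fetal and female liver, were too low for the test.

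Cyp2c genes make epoxides and hydroxides of arachidonic acid, and they split into genes that rose and genes that fell. Cyp2c65 was at 7.37, 32.4, 5.99 and 27.2 CPM for P6 jejunum and 1.53, 1.77, 0.705 and 4.17 CPM for P6 ileum. In the P36 libraries it stood at 273, 231, 172 and 219 CPM in the jejunum and 59.0, 44.4, 32.1 and 47.6 CPM in the ileum. Neither the ages nor the regions overlapped, and the P6 jejunal pairs of the 2 identifier prefixes had means of 6.68 and 29.8 CPM. The age change was 3.61 ± 0.53 (adjusted p = 3.21e-05) in the jejunum and 4.48 ± 0.57 (adjusted p = 7.49e-06) in the ileum, and the regional one 3.15 ± 0.55 (adjusted p = 5.50e-04) at P6 and 2.29 ± 0.50 (adjusted p = 0.00510) at P36. Without P6 ileum replicate 4 the ileal age change was 5.07 and the regional one at P6 was 3.75.

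Cyp2c66, its neighbour, showed a steeper regional difference. It had 85, 56, 65 and 51 counts for P6 jejunum, 1, 0, 0 and 0 for P6 ileum, 726, 1096, 487 and 655 for P36 jejunum and 4, 12, 11 and 8 for P36 ileum. The ileum was all but empty of it at P6. The P6 ratio of jejunum to ileum rested on 1 ileal count and was 248 (95% interval 44.1 to 9836), and the fitted log2 fold change at P36 was 6.23 ± 0.37 (adjusted p = 5.15e-08). With age it rose in the jejunum (3.61 ± 0.31, adjusted p = 8.28e-08), and in the ileum by a ratio of 39.5 (95% interval 6.65 to 1606).

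Cyp2c55, which hydroxylates arachidonic acid and is known from the colon, was at 0.480, 1.12, 0.578 and 0.670 CPM for P6 jejunum, 0.0987, 0.172, 0.542 and 0.736 for P6 ileum, 36.4, 41.7, 18.7 and 30.7 for P36 jejunum and 17.5, 16.0, 5.35 and 14.6 for P36 ileum. It rose in both regions, by 5.47 ± 0.50 (adjusted p = 1.79e-07) in the jejunum and 5.11 ± 0.52 (adjusted p = 6.28e-07) in the ileum on the log2 scale, with no overlap of the ages. Cyp2c29, an abundant liver enzyme, had 0 counts in all 8 P6 libraries, 132, 188, 31 and 42 for P36 jejunum and 0, 2, 0 and 0 for P36 ileum. Its 2 highest libraries were the 2 female jejuna. It was at least 138-fold higher in the P36 than in the P6 jejunum against the floor of 3 counts, and the P36 ratio of jejunum to ileum was 177 (95% interval 48.8 to 1469.8).

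The genes that fell were Cyp2c68, Cyp2c44, Cyp2c67 and Cyp2c70. Cyp2c68 was at 93.9, 139, 90.7 and 139.6 CPM for P6 jejunum, 115, 167, 122 and 238 for P6 ileum, 116, 96.4, 99.7 and 106 for P36 jejunum and 32.6, 19.8, 23.9 and 27.9 for P36 ileum. The P36 ileal libraries were the low ones, below all others. It fell in the ileum (-2.62 ± 0.24, adjusted p = 1.93e-07), with -0.14 ± 0.23 (adjusted p = 0.623) in the jejunum, and the interaction was -2.48 ± 0.32 (adjusted p = 1.90e-04). The P36 regional difference (2.01 ± 0.24, adjusted p = 2.81e-05) sat at the fold minimum, and leaving out P36 jejunum replicate 1 or 4 or P36 ileum replicate 2 or 3 took it to between 1.91 and 2.00, and library totals to 1.89. At P6 the pairs of the 2 identifier prefixes had means of 92.3 and 139 CPM in the jejunum and 119 and 203 CPM in the ileum.

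Cyp2c44, an arachidonic acid epoxygenase, was at 6.24, 7.63, 5.15 and 8.71 CPM for P6 jejunum, 4.99, 8.27, 4.88 and 9.81 for P6 ileum, 2.35, 2.87, 2.78 and 2.24 for P36 jejunum and 0.719, 0.227, 0.163 and 0.317 for P36 ileum. The P36 ileal libraries were again the lowest, and at P6 the regions were not called (-0.01 ± 0.31). The ileal fall was -4.29 ± 0.40 (adjusted p = 2.05e-07), the P36 regional difference 2.85 ± 0.39 (adjusted p = 1.28e-04) and the interaction -2.86 ± 0.50 (adjusted p = 0.00185). Without P36 ileum replicate 1 these were -4.92, 3.48 and -3.48. Cyp2c67 fell in both regions (-2.26 ± 0.59, adjusted p = 0.00426 in the jejunum, which was -1.85 and not called without P6 jejunum replicate 1, and -4.41 ± 0.71, adjusted p = 7.23e-05 in the ileum). Cyp2c70, the liver enzyme that makes muricholic acids, had 136, 33, 82 and 24 counts for P6 jejunum, 11, 2, 11 and 5 for P6 ileum, 4, 2, 8 and 1 for P36 jejunum and 0, 0, 1 and 0 for P36 ileum. It differed between the regions at P6 (3.13 ± 0.66, adjusted p = 0.00248) and fell with age in the jejunum (-4.07 ± 0.71, adjusted p = 1.78e-04), and in the ileum by a ratio of 25.7 (95% interval 4.26 to 1048).

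The direction of the Cyp2c genes ran with their order on chromosome 19, a pattern noticed after the values were seen. Cyp2c55, Cyp2c65, Cyp2c66 and Cyp2c29, which rose, lie between bases 39007019 and 39330713. Cyp2c67, Cyp2c68 and Cyp2c70, which fell in at least 1 region, lie between 39608859 and 40187286, and Cyp2c44 lies apart at 44005022 to 44029247. The same stretch also holds Cyp2c53-ps, Cyp2c39, Cyp2c37, Cyp2c54 and Cyp2c50, all with 0 counts, and Cyp2c38, Cyp2c40 and Cyp2c69, too low to test. On chromosome 17 the Cyp4f genes did not split in this way, since Cyp4f17 (fell) neighbours Cyp4f16 (not called with age), and the risers Cyp4f40, Cyp4f15 and Cyp4f14 precede Cyp4f13 (not called).

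Cyp2b10 (chr7:25897658-25926624, plus strand), the classical target of CAR, had 2, 0, 2 and 0 counts for P6 jejunum and 1, 0, 0 and 0 for P6 ileum. Its P36 levels were 571, 489, 205 and 418 CPM in the jejunum and 2.93, 4.03, 0.204 and 2.30 CPM in the ileum. The P36 jejunum stood alone, and its lowest library lay far above the highest ileal one. The fitted log2 fold change was 12.95 ± 0.86 (adjusted p = 4.89e-09) with age in the jejunum, where the P6 group held 4 counts, and 7.50 ± 0.62 (adjusted p = 1.03e-06) between the regions at P36. The ileal rise rested on 1 P6 count and was a ratio of 179 (95% interval 31.6 to 7095). Nr1i3, the gene of CAR, was at 43.9 to 48.9 CPM for P6 jejunum, 12.4 to 28.4 for P6 ileum, 57.2 to 73.6 for P36 jejunum and 2.33 to 11.6 for P36 ileum. It was called between the regions at P36 (3.52 ± 0.39, adjusted p = 1.76e-05) and fell with age in the ileum (-2.03 ± 0.37, adjusted p = 2.67e-04).

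Cyp2d26 was at 95.9, 68.0, 69.1 and 97.0 CPM for P6 jejunum and 6.02, 3.23, 5.42 and 0.392 CPM for P6 ileum. At P36 it was at 332, 218, 208 and 257 CPM in the jejunum and 88.7, 38.6, 6.98 and 31.0 CPM in the ileum. The jejunum lay above the ileum in every mouse. The regional log2 fold change was 4.46 ± 0.69 (adjusted p = 1.99e-04) at P6 and 2.62 ± 0.62 (adjusted p = 0.00875) at P36, and the ileum rose with age (3.46 ± 0.66, adjusted p = 3.84e-04). Without P36 ileum replicate 1 the last 2 were 3.32 and 2.76. Cyp2d22, often taken as the counterpart of the human CYP2D drug-metabolising enzyme, was at 0.611, 2.32, 1.16 and 2.68 CPM for P6 jejunum, 0.395, 0.948, 0.868 and 0.736 for P6 ileum, 63.0, 48.3, 43.1 and 49.5 for P36 jejunum and 25.9, 8.79, 0.899 and 9.66 for P36 ileum. It rose with age in both regions (4.91 ± 0.71, adjusted p = 2.71e-05 in the jejunum and 3.92 ± 0.72, adjusted p = 2.59e-04 in the ileum, where the ages overlapped). Its regional difference at P36 was 2.17 ± 0.61 (adjusted p = 0.0239), which lost the call without P36 jejunum replicate 1 or any 1 of P36 ileum replicates 2, 3 and 4 (1.78 to 2.11) and was 3.00 without P36 ileum replicate 1. Cyp2d10, too low for the test, was tested and called higher at P36 in both regions in the fits that left out 1 library, except that without P36 ileum replicate 3.

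Cyp2j6, an arachidonic and linoleic acid epoxygenase long known from the intestine, was abundant in all 4 groups and called in none of the comparisons. It was at 153, 136, 142 and 156 CPM for P6 jejunum, 103, 89.4, 94.5 and 168 for P6 ileum, 322, 207, 251 and 282 for P36 jejunum and 145, 89.9, 131 and 128 for P36 ileum. The P36 jejunum held the highest libraries, with a log2 difference of 1.11 ± 0.20 (adjusted p = 0.00144) over the ileum and 0.86 ± 0.20 (adjusted p = 0.00228) over P6, both under the fold minimum. Cyp2j9 was at 4.67, 4.42, 5.93 and 4.21 CPM for P6 jejunum, 2.81, 3.40, 2.49 and 5.59 for P6 ileum, 4.00, 2.47, 5.16 and 3.30 for P36 jejunum and 2.27, 1.36, 2.16 and 1.11 for P36 ileum, and no difference reached the fold minimum. Cyp2j13 was the 1 member called higher in the ileum, with 86, 48, 82 and 24 counts for P6 ileum, 1, 2, 3 and 2 for P6 jejunum, 0, 0, 0 and 0 for P36 jejunum and 2, 0, 1 and 0 for P36 ileum. Its regional log2 fold change at P6 was -4.89 ± 0.64 (adjusted p = 1.24e-04), and its ratio of P6 to P36 in the ileum was 70.8 (95% interval 23.9 to 346).

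Cyp2w1, a P450 of the fetal gut that is switched off later in life, was the member that fell furthest. It was at 70.5, 43.2, 87.7 and 44.5 CPM for P6 jejunum and 146, 86.3, 196 and 8.88 CPM for P6 ileum. The P36 levels were 0.294, 0.132, 0.404 and 0.320 CPM in the jejunum and 0.442, 0.510, 0.572 and 1.03 CPM in the ileum. Every P36 library lay below every P6 library, and P6 ileum replicate 4 was the lowest of P6. The log2 fold change with age was -7.72 ± 0.82 (adjusted p = 9.27e-07) in the jejunum and -7.46 ± 0.78 (adjusted p = 8.07e-07) in the ileum. Within P6, replicates 1 and 3 were higher than 2 and 4 in both regions (jejunal means 79.1 and 43.9 CPM), which parts the 2 identifier prefixes; Paneth markers parted the same way, at 834 and 596 CPM in jejunal replicates 1 and 3 against 35.1 and 37.2 CPM in 2 and 4, and the part of either in the other was not tested.

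Cyp2s1, an epithelial P450 that dioxin can induce, had, like Cyp4f40, Cyp2w1 and Cyp2j13, its higher mean in the ileum at both ages. It was at 11.8, 11.4, 11.8 and 11.2 CPM for P6 jejunum, 27.6, 25.1, 35.8 and 10.3 for P6 ileum, 94.5, 87.2, 86.5 and 91.1 for P36 jejunum and 131, 108, 96.5 and 125 for P36 ileum. It rose in the jejunum (2.96 ± 0.26, adjusted p = 1.32e-07) and in the ileum (2.22 ± 0.25, adjusted p = 2.29e-06), the latter 1.97 and under the fold minimum without P6 ileum replicate 4. The regional difference at P6 was -1.10 ± 0.25 (adjusted p = 0.00415), under the fold minimum. Cyp2u1, a hydroxylase of long-chain fatty acids, was at 4.54, 5.53, 5.30 and 7.23 CPM for P6 jejunum, 10.5, 10.7, 13.4 and 8.88 for P6 ileum, 11.0, 17.5, 14.7 and 14.4 for P36 jejunum and 13.9, 8.28, 5.27 and 11.0 for P36 ileum. The ileum was the higher region at P6 (-0.94 ± 0.26, adjusted p = 0.0134), under the fold minimum, the P36 difference was 0.59 ± 0.25 (adjusted p = 0.136), and the interaction between them was -1.53 ± 0.36 (adjusted p = 0.0147).

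Cyp2f2, the naphthalene-activating enzyme of airway club cells, had 50, 27, 38 and 23 counts for P6 jejunum, 6, 2, 4 and 4 for P6 ileum, 4, 2, 2 and 6 for P36 jejunum and 6, 4, 5 and 2 for P36 ileum. The P6 jejunum was the 1 group above 6 counts in each library. The regional log2 fold change at P6 was 3.00 ± 0.46 (adjusted p = 1.87e-04), the jejunal age change -3.14 ± 0.47 (adjusted p = 3.79e-05) and the interaction 3.38 ± 0.70 (adjusted p = 0.00662).

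In family 1, Cyp1a1, the AhR target that oxidises polycyclic aromatic compounds, had 0, 3, 0 and 1 counts for P6 jejunum, 3, 4, 0 and 0 for P6 ileum, 141, 127, 25 and 73 for P36 jejunum and 3, 2, 0 and 3 for P36 ileum. The P36 jejunum alone held more than 4 counts in a library, and it ranged from 25 to 141 counts among the 4 mice. The log2 fold change was 6.48 ± 0.96 (adjusted p = 3.51e-05) with age in the jejunum and 5.27 ± 0.88 (adjusted p = 6.54e-04) between the regions at P36. The interaction (-6.04 ± 1.62, adjusted p = 0.0298) had an adjusted p above 0.05 without any 1 of P6 jejunum replicates 1, 3 and 4, P6 ileum replicates 1 and 2, P36 jejunum replicate 1 and P36 ileum replicate 2 (adjusted p = 0.0506 to 0.134). Cyp1b1, a P450 of mesenchymal cells, reached 1.03 CPM in P6 ileum replicate 2, the library with smooth muscle markers, and no more than 0.196 CPM elsewhere.

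**Figure D5:**
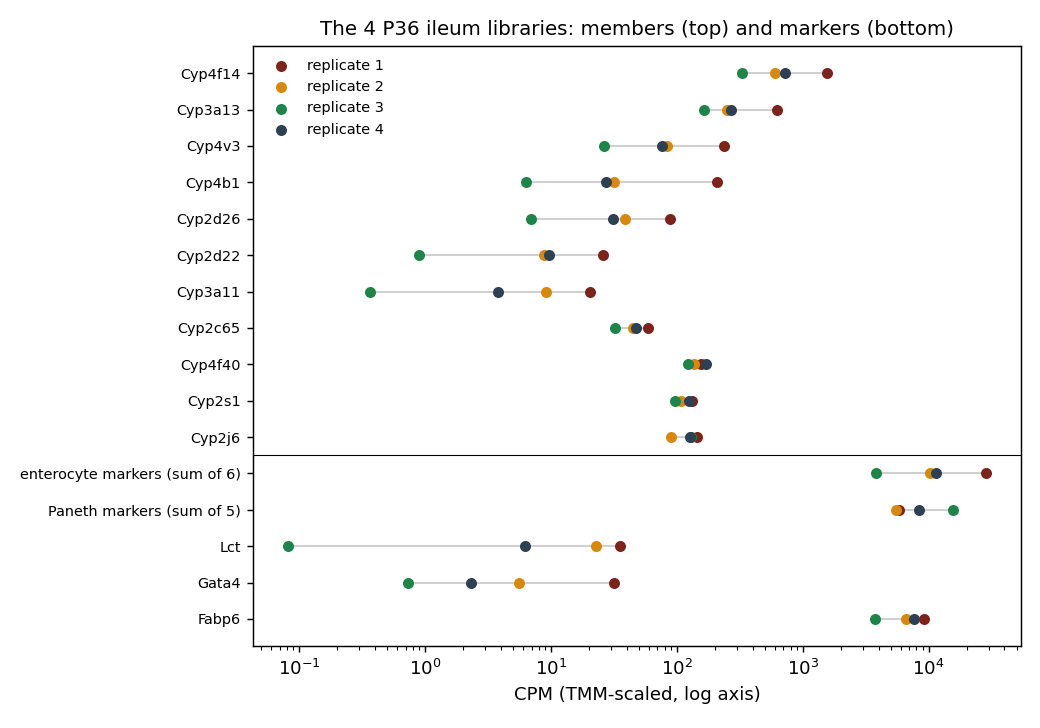
Levels (CPM, log axis) in the 4 P36 ileal libraries of 11 members, above, and of the summed enterocyte and Paneth markers, Lct, Gata4 and Fabp6, below. Replicate 1 is the highest and replicate 3 the lowest library for most of the members, for Lct, Gata4, Fabp6 and the enterocyte sum, and replicate 3 is the highest for the Paneth sum.

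Within the P36 ileum most members ranked the 4 mice alike. Of the 19 members with a mean of at least 1 CPM there, 17 were highest in replicate 1 and 16 lowest in replicate 3. The spread was from 6.29 to 207 CPM for Cyp4b1 and from 0.368 to 20.3 CPM for Cyp3a11. Replicate 1 also had the highest and replicate 3 the lowest enterocyte marker sum (28348, 10199, 3833 and 11469 CPM in replicates 1 to 4) and Lct (35.3, 22.9, 0.0817 and 6.17 CPM). Gata4, the jejunal transcription factor, was at 31.6, 5.56, 0.735 and 2.30 CPM, and Fabp6, the ileal bile acid binding protein, at 9114, 6647, 3727 and 7683 CPM. The Paneth sum was 5779, 5476, 15635 and 8309 CPM, highest in replicate 3. The part of these cell markers in the P450 levels was not tested. In the P36 jejunum, replicate 1 was highest for 14 of 24 members and replicate 3 lowest for 14. In the P6 groups no replicate was highest for more than 9, while P6 ileum replicate 4 was lowest for 10 of 20 members and highest for 7. These rankings were not counted over all genes, so they are not shown to be particular to the members.

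Sums over subfamilies were tested in place of the single genes. They do not depend on which paralogue of 1 subfamily a counted read was assigned to. They do not recover reads left out for aligning to several places. Among those tested, Cyp2f, Cyp2s, Cyp2u, Cyp2w and Cyp4v have 1 member each. Nearly all counts of Cyp1a, Cyp2b and Cyp4b come from Cyp1a1, Cyp2b10 and Cyp4b1. For these subfamilies, here and between the regions, the test repeats that of the single gene and is not a separate result. Of 14 subfamilies tested, 10 were called with age in the jejunum (16.4% of all 13406 rows), with Cyp1a, Cyp2b, Cyp2s, Cyp3a, Cyp4b, Cyp4f and Cyp4v higher and Cyp2f, Cyp2w and Cyp4a lower at P36. In the ileum 7 were called (16.3%), with Cyp2b, Cyp2d, Cyp2s, Cyp4b, Cyp4f and Cyp4v higher and Cyp2w lower. Cyp4f summed to 219 ± 55.2 CPM for P6 jejunum, 107 ± 44.0 for P6 ileum, 1721 ± 148 for P36 jejunum and 1057 ± 591 for P36 ileum (mean ± SD, n = 4). Cyp3a summed to 274 ± 34.8, 217 ± 62.9, 1402 ± 309 and 365 ± 226 CPM in the same order. Cyp2c, whose members moved both ways, summed to 152 ± 37.2, 174 ± 58.8, 406 ± 68.3 and 86.3 ± 20.1 CPM and was not called with age in either region.

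Between the regions 3 subfamily sums were called at P6 (Cyp2d, Cyp2f and Cyp4a, against 6.45% of all rows) and 5 at P36 (Cyp1a, Cyp2b, Cyp2c, Cyp2d and Cyp4v, against 3.55%), all higher in the jejunum. Cyp2d summed to 84.4 ± 16.0 CPM for P6 jejunum and 5.40 ± 3.16 for P6 ileum. At P36 it summed to 306 ± 64.8 and 54.5 ± 44.7 CPM. The interaction passed for 5 (8.71% of all rows), with Cyp2f at 3.38 and Cyp1a (-6.04), Cyp2c (-2.43), Cyp3a (-1.60) and Cyp2u (-1.53) with the larger jejunal excess at P36. At P36, 8 subfamilies were called between the regions without P36 ileum replicate 1, with no share over all rows for that fit.

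No member differed between the sexes at the adjusted threshold. On counts summed per mouse, where the filter kept 45 members, with age in the model, 0 passed edgeR's test (0.0344% of all 14519 genes did) and 0 passed in DESeq2. At an unadjusted p below 0.05 there were 2 (2.2% of all genes), Cyp2c29 at -2.05 ± 0.53 and Cyp1a1 at -1.61 ± 0.61 on the log2 scale (male over female). With 2 mice of each sex per age, the P36 jejunum gave both of these their counts.

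Genes that serve the P450 enzymes were counted in the same comparisons. Of 9 genes of electron supply and haem, 3 were called with age in the jejunum (16.4% of all genes), with Cyb5a (2.09 ± 0.23, adjusted p = 1.48e-06), the electron donor cytochrome b5, and Cyb5r3 (2.24 ± 0.24, adjusted p = 8.98e-07), its reductase, higher and Hmox1 (-6.11 ± 0.36, adjusted p = 1.23e-09), which breaks down haem, lower at P36. In the ileum 1 was called (16.4% of all genes), Hmox1 (-5.66 ± 0.35, adjusted p = 2.09e-09). Between the regions none was called at P6 (6.5% of all genes), where 2 had an adjusted p below 0.05, and Cyb5r3 was called at P36 (2.17 ± 0.24, adjusted p = 1.34e-05, 3.6% of all genes). Por, which serves all microsomal P450 enzymes, was at 134 to 161 CPM for P6 jejunum, 22.4 to 76.5 for P6 ileum, 79.6 to 127 for P36 jejunum and 55.3 to 86.7 for P36 ileum, and it was called in none.

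Of 15 ligand-activated regulators and partner factors, 3 were called with age in the jejunum, all higher at P36 (16.4% of all genes called, 7.86% higher), namely Vdr, the vitamin D receptor (3.04 ± 0.15, adjusted p = 2.31e-10), Ppard (2.80 ± 0.48, adjusted p = 1.48e-04) and Hnf4g (2.37 ± 0.25, adjusted p = 1.08e-06). In the ileum Ppard (3.32 ± 0.49, adjusted p = 3.24e-05) and Vdr (2.25 ± 0.15, adjusted p = 5.34e-09) rose and Nr1i3 fell (16.4% of all genes called). At P36, Nr1i3 was higher in the jejunum and Nr1h4, the bile acid receptor FXR, higher in the ileum (-2.03 ± 0.13, adjusted p = 9.27e-08; 3.6% of all genes called), and at P6 none was called (6.5%). The age change differed between the regions for 5 of the 15 (8.69% of all genes), with interactions of -2.48 for Nr1i3, -1.27 for Ahr, 1.88 for Nr1h4, -1.62 for Hnf4g and -0.80 for Vdr.

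Target genes of 2 of these receptors outside the P450 families were also counted. Of 4 AhR targets 2 were tested and 0 were called in any comparison (3.6% to 16.4% of all genes). By the adjusted p alone, Nqo1 was higher at P36 in the jejunum (1.89 ± 0.24, adjusted p = 7.21e-06) and ileum (1.28 ± 0.24, adjusted p = 2.76e-04). Tiparp was lower at P36 in the ileum (-0.80 ± 0.26, adjusted p = 0.0143). By that rule 51.6% of all genes differed with age in the jejunum and 55.7% in the ileum. Of 11 PPAR-alpha targets, 8 were called with age in the jejunum (2 higher and 6 lower at P36) and 7 in the ileum (2 higher and 5 lower), beside 16.4% of all genes called in either. Between the regions 2 were called at P6 (6.5% of all genes) and 1 at P36 (3.6%), all higher in the jejunum.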

How the data were processed

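Poly(A) RNA of 16 libraries (8 mice, jejunum and ileum of each) was sequenced by the submitters with a stranded kit. The authors deposited raw read counts per gene. Per the submitters' processing notes and the study's methods, reads were trimmed with Trimmomatic 0.38, aligned to mm10 with STAR and counted per exon union with featureCounts (Subread 1.6.3), with strand used and reads of several alignments or several genes left out; the notes give STAR 2.5.3. The counts were used as deposited.

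Members were the rows matching the symbol pattern. The members and the lists were chosen with earlier results of these data known. Counts were tested in R 4.3.3 with edgeR 4.0.16 (quasi-likelihood, TMM scaling, filterByExpr, 4 group means over 16 libraries), and p-values were Benjamini-Hochberg adjusted over all 13429 genes tested; SE values were derived from the F statistic. Calls were made at an adjusted p of 0.05 with a fold minimum of 2 on the log2 scale, and for the interaction with no fold minimum. CPM are read counts per 1000000 of the TMM-scaled total. Library totals of 12159237 to 25947276 reads set the counting precision.

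Values per library were given for the highest member of each subfamily reaching a group mean of 5 CPM, for further members by level up to 25, and for the 6 members with the smallest interaction p. Replicate numbers follow accession order within a group, and the animal identifiers in the labels show that 1 number names 1 mouse in both regions. Residuals of the 2 regions of 1 mouse correlated at 0.151 to 0.449 over 13429 genes, those of different mice at -0.386 to 0.211, so a fit with the mouse as block was an alternative, together with other scalings (library totals, DESeq2 size factors), other filters, DESeq2 1.42.0, a sex term and each library left out. Promoters and their starts came from RefSeq (GRCm38.p6), and 64 members matched within 100 bases. Proteins were not analysed here, and 1 item of the lists is not reported here.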

Additional observations from a re-analysis of the deposited data

Results flagged for a closer look

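Among 83 combinations of a member and a group, over 26 members, 5 had 1 library set far apart from the other 3, where chance alone sets about 1 in 20 apart. Cyp4b1 was at 207 CPM in P36 ileum replicate 1 against 6.29 to 31.9 CPM in the others. In P6 ileum replicate 4, Cyp4f16 was at 7.31 CPM against 32.6 to 37.2, and Cyp4f13 at 22.2 CPM against 59.0 to 64.2. Por and Ppard were low in that library as well, at 22.4 and 1.96 CPM. Cyp3a13 was at 164 CPM in P6 jejunum replicate 3 against 219 to 223, and Cyp4f40 at 100.5 CPM in P36 jejunum replicate 1 against 113 to 114.

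The regional difference changed with age for 5 of 37 members by the interaction test (8.69% of all genes). It is given as the log2 fold change of jejunum over ileum at P6 minus that at P36. It was -2.48 for Cyp2c68, -2.86 for Cyp2c44, -1.53 for Cyp2u1, 3.38 for Cyp2f2 and -6.04 for Cyp1a1. The Cyp1a1 interaction had an adjusted p above 0.05 in 7 of 24 repeats.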

How the results depend on the processing

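Of 2288 repeats of 89 results on single members, 2235 kept direction and side of the threshold, 30 lost it, 23 gained it and 0 reversed. The 89 results all had an adjusted p below 0.05, so the setting with no fold minimum could only keep or gain a call. Many repeats left out a library of a group outside the comparison. The tally therefore overstates how far the results were put to the test. The counts of members and subfamilies below carry no share over all genes, so their changes are not shown to be particular to them. The interaction count of 5 became 9 with library totals, 9 in DESeq2, 9 with the mouse as a replicate block and 10 without both P6 ileum replicate 4 and P36 ileum replicate 1, a setting chosen after seeing the data; the cause was not tested. Members called between the regions at P6 numbered 6 when a mean of 1 CPM was required, which left 27 members to test, and subfamily sums 5 with no fold minimum. On the TMM-scaled total the P6 shares were 0.0980% in the jejunum and 0.0776% in the ileum. On the unscaled total the P36 jejunal share without Cyp4f14 was 0.404%. Leaving out 1 library at a time gave 9 to 10 called members between the regions at P6, 11 to 15 at P36, 23 to 25 with age in each region, 4 to 10 interactions (10 without P36 ileum replicate 1) and 0 between the sexes. Subfamily sums then gave 2 to 3, 5 to 8 (8 without P36 ileum replicate 1), 10 to 11 and 6 to 8. The block on the mouse gave 9 members at P6, losing Cyp4f37, and 16 at P36, adding Cyp2c67 (2.20), Cyp2c70 (3.48) and Cyp4b1 (2.85), and no age comparison could be blocked, since each mouse has 1 age. Library totals moved the median log2 fold change of all genes by -0.29 between the regions at P6, -0.14 at P36 and -0.15 in the interaction. Without 1 library, called folds moved by over 1.5 times also for Cyp2c29 (9.67) and Cyp4a10 (5.89) at P36 without P36 ileum replicate 2, for Cyp2c66 (8.90) and Cyp4a10 (10.57) at P6 and Cyp2c66 (6.32) and Cyp2b10 (8.56) with age in the ileum without P6 ileum replicate 1, for Cyp2c70 (-5.86) with age in the ileum without P36 ileum replicate 3, for Cyp4a12a (-4.08) without P6 ileum replicate 4, for Cyp2j13 (-6.96) without P36 ileum replicate 1, and for Cyp1a1 with age in the jejunum (7.73) without P6 jejunum replicate 2. At these depths a member at 0 counts was not detected, which does not show that it is absent.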

Other observations

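The 31 cytochrome P450 genes outside families 1 to 4 were read in the same libraries, and 6 passed the filter. Cyp27a1, a mitochondrial sterol hydroxylase of bile acid synthesis, rose in both regions (4.61 ± 0.37, adjusted p = 4.46e-08 in the jejunum and 3.25 ± 0.36, adjusted p = 1.66e-06 in the ileum on the log2 scale) and was higher in the jejunum at P36 (2.11 ± 0.33, adjusted p = 3.72e-04). Cyp17a1, the steroid hydroxylase and lyase, rose in both regions (7.36 ± 1.07, adjusted p = 7.62e-05 and 4.51 ± 0.99, adjusted p = 0.00178). Cyp11a1, which starts steroid synthesis from cholesterol, fell in both (-3.69 ± 0.63, adjusted p = 1.38e-04 and -9.55 ± 0.71, adjusted p = 1.92e-08). It was higher in the ileum at P6 (-4.21 ± 0.46, adjusted p = 7.63e-06), with a range of 12.1 to 39.7 CPM there against 0.893 to 1.78 CPM in the jejunum, and its regional difference changed with age (-5.86 ± 1.28, adjusted p = 0.00885).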
